A study of Mus musculus with 16 samples.

Results

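The 9 genes described here encode subunits of the transcription factor AP-1 and its close relatives in the immediate early response. They are 4 members of the Fos family (Fos, Fosb, Fosl1 and Fosl2), 3 members of the Jun family (Jun, Junb and Jund), the stress factor Atf3 and the zinc finger factor Egr1. They were taken by name from the 16504 gene symbols on the array, with no threshold on their values, and all 9 were measured and tested, out of 16481 named genes tested. The lungs came from male C57/BL6 mice aged 8 weeks that inhaled aerosolised lipopolysaccharide (LPS), a glycolipid of the outer membrane of Gram-negative bacteria, for 5 days, or that breathed air only for the same time. LPS lungs were taken on day 5, directly after the final inhalation. RNA of 3 animals was combined in each pool, which gave 4 LPS pools and 4 air pools from 24 mice, and the spread between pools therefore holds differences between animals averaged over 3. Each pool was hybridised on 2 two-colour arrays of 22575 spots, with the dyes exchanged, against a commercial universal mouse reference RNA that is the same in both groups. Levels are given per pool as log2(lung/reference). A difference is the LPS mean minus the air mean, with its standard error (SE).

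Fos and Jun proteins share a basic leucine zipper (bZIP), a stretch through which they bind DNA as dimers. Jun proteins pair with each other or with Fos proteins, whereas Fos proteins need a partner. Transcription of Fos, Fosb, Jun, Junb, Atf3 and Egr1 starts within minutes of a stimulus, without new protein synthesis, and their messages are short-lived. LPS sensed through TLR4 activates MAP kinases and NF-kB, which act on these genes, and AP-1 then takes part in the transcription of cytokines, proteases and adhesion molecules in macrophages and epithelium of the lung.

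On the 15 arrays used, 97.16% to 99.53% of spots had positive signal in both channels, and the median lung signal was 4.27 to 28.2 times its local background. Precision is limited by the number of pools, which is 4 in each group. For air pool 4, 1 of the array files combines the images of different arrays and was left out. That pool is measured by 1 array, with lung in Cy5, and its dye effect does not cancel. The images were read with 2 versions of the same program, 2.2.4 for LPS pools 3 and 4 and air pools 1 and 2, and 2.2.3 for LPS pools 1 and 2 and air pools 3 and 4. The image names also hold a week number, which is 1 on every LPS array, 4 on those of air pools 1 and 2, and 8 on the remaining air arrays. The sources used here do not explain it, and in every difference between LPS and air the week number and the exposure cannot be told apart. The lung markers Sftpc, Sftpb, Sftpa1, Scgb1a1, Ager, Cdh5, Pecam1 and Cldn5 were all higher in lung than in the reference RNA, with means between 1.67 and 5.68 in LPS pools and between 1.40 and 5.10 in air pools, and 0 of 8 passed the test between LPS and air. Every gene name rests on how the annotation was laid over the spots, which had to be inferred from the data.

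At the end of the LPS exposure Junb was the factor that passed the test, and it was higher in LPS lungs. Of the 9 genes, 1 passed, 1 higher and 0 lower, by limma at a Benjamini-Hochberg adjusted p under 0.05 over 20629 features, where 6.67% of all features passed in either direction, 5.95% higher and 0.713% lower. The LPS pools lay above all air pools for 2 of 9, Junb and Fosl2, and below all of them for 0, against 11.3% and 5.44% of the features with a value in every pool. The median difference of the 9 was 0.08, against 0.0092 over all features. The best-known immediate early factors, Fos, Jun and Egr1, had differences between -0.14 and 0.08, none of which passed.

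**Figure D1:**
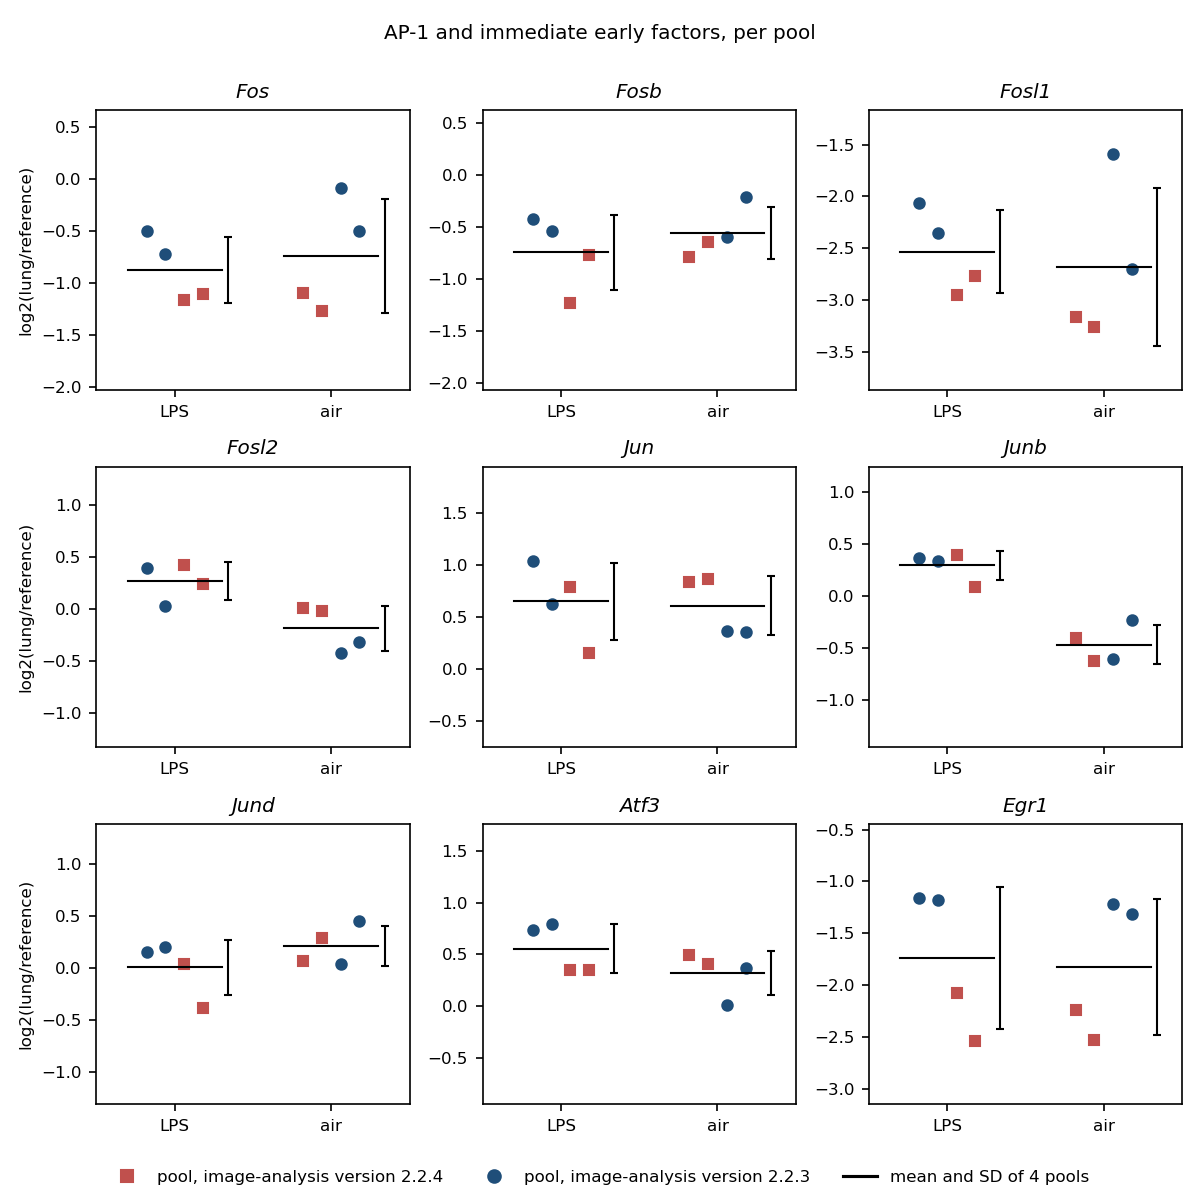
Level of each of the 9 factors as log2(lung/reference) (vertical axis) in the 4 LPS pools and the 4 air pools. Squares are pools read with version 2.2.4 and circles pools read with version 2.2.3, horizontal lines are means and the bars beside them SDs over 4 pools. All 4 Junb values of LPS pools, the lowest 0.09, lie above the air pools, the highest of which is at -0.23, while the Egr1 values divide by version, with 2.2.4 between -2.54 and -2.08 and 2.2.3 between -1.31 and -1.16.

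Junb encodes a Jun family subunit that pairs with Fos proteins and with BATF, and that in several settings opposes c-Jun. In the LPS pools 1 to 4 it stood at 0.37, 0.34, 0.39 and 0.09, against -0.40, -0.62, -0.60 and -0.23 in air pools 1 to 4. The groups did not overlap, LPS pool 4 being the lowest of its group and air pool 4, measured by 1 array, the highest of its own. The means were 0.30 ± 0.14 in LPS lungs and -0.46 ± 0.18 in air lungs (SD, n = 4 pools each). The difference was 0.76 ± 0.14 (SE), or 1.70-fold with a 95% interval of 1.37 to 2.10 (limma adjusted p = 0.00994). By its p-value Junb ranked 494 among the 20629 features.

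The rise of Junb was of the same size in both image-analysis versions, 0.76 in the pools of version 2.2.4 (adjusted p = 0.0616, limma on those 4 pools) and 0.77 in those of version 2.2.3 (adjusted p = 0.0226). Fitted alone, the pools of version 2.2.4 thus gave 0 of 9 factors past the threshold (5.58% of all features), and those of version 2.2.3 gave 1 of 9 (23.1% of all features). The test of the difference between the versions gave -0.01 ± 0.25 (adjusted p = 0.976). With the version as a block, Junb passed as before (0.76 ± 0.13, adjusted p = 0.00619). In the 8 fits that left out 1 pool each it lay between 0.71 and 0.84 and passed in all 8, with adjusted p between 0.0124 and 0.0362. The rise was also seen array by array. With lung in Cy3 the LPS arrays read 0.40, 0.21, 0.60 and 0.29, against -0.48, -0.57 and -0.73 on the air arrays. With lung in Cy5 they read 0.35, 0.46, 0.18 and -0.11, against -0.32, -0.68, -0.47 and -0.23. All 8 LPS arrays thus lay above the 7 air arrays used. The 2 arrays of a pool hold the same RNA, so they are not further replicates. The left-out array of air pool 4 read 0.02, above the -0.11 of LPS pool 4. Arrays with lung in Cy5 alone gave a difference of 0.65 that did not pass (limma adjusted p = 0.0579). The lung channel itself, as log2 of the spot over the array's median, differed by 0.52 between LPS and air arrays, and the reference channel by -0.19. Unlike the ratios, the lung channel values overlapped, with 1.06 on the array of air pool 4 and 0.80 on both arrays of LPS pool 1.

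Some leukocyte markers were higher in LPS pools, where 5.95% of all features passed as higher and 6.67% in either direction. Of the neutrophil markers 4 of 10 measured were higher and 6 did not pass. The mean level of that list ranged from 1.19 to 2.28 in LPS pools and from 0.17 to 0.87 in air pools. Of the macrophage and monocyte markers 5 of 10 were higher and 5 did not pass. Their mean level was 1.75 to 2.35 in LPS pools and 0.66 to 1.15 in air pools. Of the T and NK cell markers 0 of 9 passed, with a mean level of 0.30 to 0.37 in LPS pools and 0.11 to 0.40 in air pools. Of the B and plasma cell markers 0 of 7 passed, with -0.77 to -0.62 in LPS pools and -0.73 to -0.54 in air pools. The part of these cells in the rise of Junb was not tested. In whole lung RNA, a change in the number of cells of a type and a change in the RNA per cell cannot be told apart.

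The sequences just upstream of the genes are shown for Junb, which passed, for Fosl2, the other factor whose groups did not overlap, and for Fos, which did not pass, since the same signals are described as acting on all of them. They are the 250 bases before the annotated start of each gene, from RefSeq on mouse build GRCm38.p6 (Junb chr8:84978749-84978998 on the minus strand, Fosl2 chr5:32136222-32136471 and Fos chr12:85473640-85473889 on the plus strand). Capitals mark matches to the motifs searched for.
Junb: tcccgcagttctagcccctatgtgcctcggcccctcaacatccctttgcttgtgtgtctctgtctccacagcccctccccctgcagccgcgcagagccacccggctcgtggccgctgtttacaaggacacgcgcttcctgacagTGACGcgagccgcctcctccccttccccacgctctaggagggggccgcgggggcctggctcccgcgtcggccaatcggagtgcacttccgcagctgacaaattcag
Fosl2: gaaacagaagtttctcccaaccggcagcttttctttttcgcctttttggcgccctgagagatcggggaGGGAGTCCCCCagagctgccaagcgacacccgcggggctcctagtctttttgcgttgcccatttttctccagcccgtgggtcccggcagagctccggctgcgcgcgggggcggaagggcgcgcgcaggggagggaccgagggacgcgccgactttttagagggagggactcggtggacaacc
Fos: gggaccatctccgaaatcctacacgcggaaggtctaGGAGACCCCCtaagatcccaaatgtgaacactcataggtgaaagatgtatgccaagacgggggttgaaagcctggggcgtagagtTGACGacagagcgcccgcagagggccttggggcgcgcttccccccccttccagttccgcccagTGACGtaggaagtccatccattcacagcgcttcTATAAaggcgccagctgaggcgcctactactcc

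Of the 9 genes 7 were matched to a promoter window, and Egr1 and Fosl1 were not. The motifs, searched on both strands over 300 bases, 250 before and 50 after the start, were the AP-1 site TGACTCA, the cAMP response element TGACGTCA and its core TGACG (which lies within it), TTCNNNGAA for STAT factors, TATAA, the CArG box of serum response factor and the NF-kB site. Junb held TGACG at position -106 counted from the start, and TATAA at position 1, outside the stretch printed. Fosl2 held 2 overlapping NF-kB matches that begin at -182 and -181. Fos held TGACG at -129 and at -66, an NF-kB match at -214 and TATAA at -33. Among the windows not printed, Fosb held TGACG at -60 and an NF-kB match at -188. Atf3 held TGACG on the opposite strand at -7. Among 32851 promoter windows of that length, TGACG was found in 20.8%, an NF-kB match in 4.51% and TATAA in 24.9%. None of the 7 windows held TGACTCA (5.2% of all windows), TGACGTCA (1.79%), the CArG box (1.63%) or TTCNNNGAA (8.3%), which says only that these letters are not in these windows.

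Among the Fos family, Fosl2 came closest to passing. Fosl2 encodes Fra-2, a Fos protein without the strong activation domain of c-Fos. It stood at 0.40, 0.03, 0.43 and 0.24 in LPS pools 1 to 4, against 0.01, -0.02, -0.42 and -0.32 in air pools 1 to 4. The groups did not overlap, but LPS pool 2 and air pool 1 lay close to each other. The means were 0.27 ± 0.18 in LPS lungs and -0.19 ± 0.22 in air lungs (SD, n = 4 each), a difference of 0.46 ± 0.15 with a 95% interval of 0.12 to 0.80. It did not pass over all features (limma adjusted p = 0.106). With the version as a block 2 of 9 factors passed, Junb and Fosl2 (0.46 ± 0.13, adjusted p = 0.0495), where 11% of all features passed in either direction and 8.72% higher. In further fits with that block, chosen after the data were seen, Fosl2 did not pass without air pool 4 (0.46 ± 0.14, adjusted p = 0.112) or with lung in Cy5 only (0.54 ± 0.15, adjusted p = 0.052). Within the versions Fosl2 differed by 0.34 (2.2.4) and 0.58 (2.2.3), and it passed in 0 of the 8 fits without 1 pool. Its median lung signal was 121 times the local background.

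Fos encodes c-Fos, the founding member of the family. It stood at -0.51, -0.72, -1.17 and -1.11 in LPS pools 1 to 4, against -1.10, -1.27, -0.09 and -0.50 in air pools 1 to 4. In both groups the higher values were those of the pools read with version 2.2.3, and LPS and air overlapped. The difference was -0.14 ± 0.26 (95% interval -0.72 to 0.45, adjusted p = 0.799), with 0.05 within version 2.2.4 and -0.32 within version 2.2.3. A second probe of Fos gave -0.15 ± 0.19 (adjusted p = 0.686), but it was dim, with a median lung signal of 0.890 times the local background, and was below that background on 7 of the 14 arrays with a value.

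Fosb encodes a Fos protein with a long and a short form, and its short form lacks the activation domain. Fosb stood at -0.43, -0.54, -1.24 and -0.78 in LPS pools 1 to 4, against -0.80, -0.64, -0.59 and -0.21 in air pools 1 to 4. The groups overlapped, with LPS pool 3 the lowest of all, and the difference was -0.18 ± 0.20 (95% interval -0.62 to 0.26, adjusted p = 0.622). Fosl1, which encodes Fra-1, was far below the reference RNA in every pool, at -2.07, -2.35, -2.95 and -2.76 in LPS pools 1 to 4, against -3.16, -3.26, -1.60 and -2.70 in air pools 1 to 4. Air pool 3 was the highest of the 8 pools and air pools 1 and 2 were the lowest. The Fosl1 difference was 0.15 ± 0.35 with a 95% interval of -0.62 to 0.91 (adjusted p = 0.84), the widest interval after that of Egr1. Its median lung signal was 6.59 times the local background, and the lung signal was below the local background on 0 of 15 arrays, as for the probe used for each of the other factors.

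In the Jun family, Jun and Jund did not follow Junb past the threshold. Jun encodes c-Jun, the main partner of c-Fos and the substrate of the JNK kinases. It stood at 1.03, 0.62, 0.79 and 0.15 in LPS pools 1 to 4, against 0.84, 0.87, 0.36 and 0.36 in air pools 1 to 4. The highest and the lowest of the 8 values were both LPS pools. The difference was 0.04 ± 0.21 (95% interval -0.42 to 0.51, adjusted p = 0.923). Within the versions it ran in opposite directions, -0.38 in 2.2.4 and 0.47 in 2.2.3, and the test of that contrast gave -0.85 ± 0.31 (unadjusted p = 0.0239, adjusted p = 0.11). Jund encodes JunD, the Jun protein that is present in most resting cells and that depends least on a stimulus. Jund stood at 0.16, 0.21, 0.04 and -0.38 in LPS pools 1 to 4, against 0.07, 0.29, 0.04 and 0.46 in air pools 1 to 4, and the groups overlapped. The difference was -0.21 ± 0.16 (95% interval -0.57 to 0.16, adjusted p = 0.486).

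**Figure D2:**
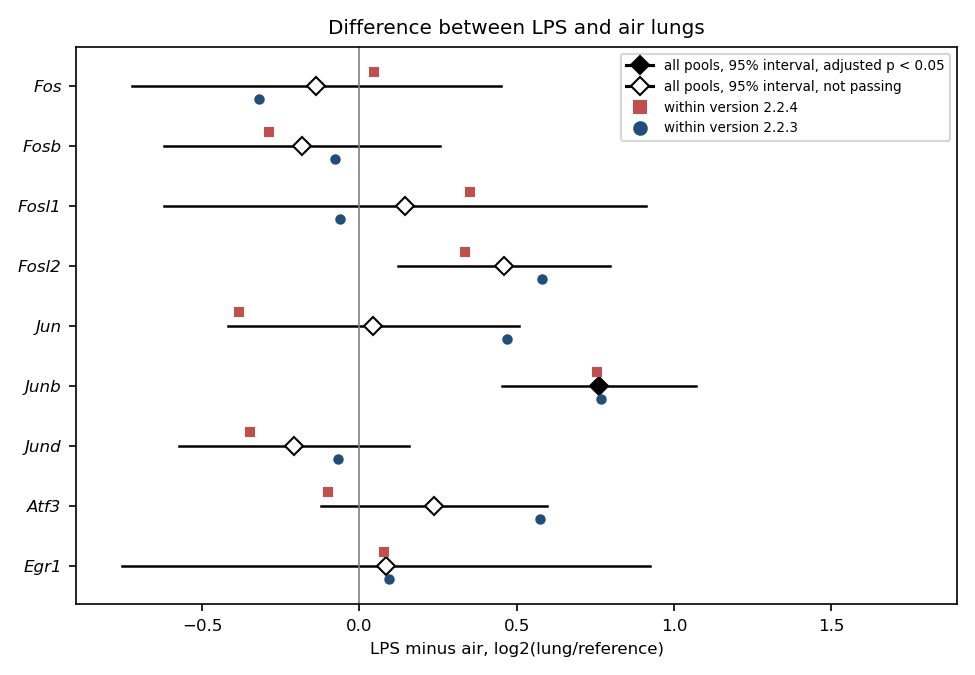
Difference between LPS and air lungs in log2(lung/reference) (horizontal axis) for each of the 9 factors. Diamonds with lines are the fit over all 8 pools with its 95% interval, filled where the adjusted p is under 0.05, squares are the pools of version 2.2.4 alone and circles those of version 2.2.3 alone. Junb is the filled diamond at 0.76 with 0.76 and 0.77 within the versions, and Jun shows the widest gap between versions, at -0.38 and 0.47.

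Atf3 encodes a bZIP factor that pairs with Jun proteins and that limits cytokine transcription in macrophages exposed to LPS. It stood at 0.74, 0.79, 0.35 and 0.35 in LPS pools 1 to 4, against 0.49, 0.41, 0.02 and 0.37 in air pools 1 to 4. LPS pools 1 and 2 lay above every air pool, whereas LPS pools 3 and 4 lay among them. The difference was 0.24 ± 0.16 (95% interval -0.12 to 0.60, adjusted p = 0.416). It was -0.10 within version 2.2.4 and 0.57 within version 2.2.3, and the contrast between them was -0.67 ± 0.21 (unadjusted p = 0.0116, adjusted p = 0.0781). For 0 of the 9 factors did that contrast pass after adjustment, where 8.69% of all features did. The unadjusted p-values of Jun and Atf3 were not set against a share of all features and do not mark these factors out.

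Egr1 encodes a zinc finger factor outside the bZIP family, induced through serum response factor together with Fos. It stood at -1.16, -1.18, -2.08 and -2.54 in LPS pools 1 to 4, against -2.24, -2.53, -1.21 and -1.31 in air pools 1 to 4. The values formed a higher set and a lower set, each made of 2 LPS pools and 2 air pools, and the division was that of the image-analysis version. Between LPS and air the difference was 0.08 ± 0.38 (95% interval -0.75 to 0.92, adjusted p = 0.917). With the version as a block the estimate stayed at 0.08 and its SE was 0.14 (adjusted p = 0.72), and within the versions it was 0.08 in 2.2.4 and 0.09 in 2.2.3.

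Since the Egr1 values divided by version, the pools of version 2.2.4 were compared with those of version 2.2.3 for all 9 factors, a test chosen after these values were seen. Of the 9, 3 passed, where 6.55% of all features did, and all 3 were lower in version 2.2.4. The pools of the versions did not overlap for 4 of 9 (Fos, Fosb, Fosl1 and Egr1), where 11% of all features did not. Egr1 averaged -2.35 in the pools of version 2.2.4 and -1.22 in those of version 2.2.3, a difference of -1.13 ± 0.14 (limma adjusted p = 0.0029). Only 1.19% of all features differed by more between the versions. Fos differed by -0.71 ± 0.14 (adjusted p = 0.0204), Fosl1 by -0.86 ± 0.22 (adjusted p = 0.0492) and Fosb, which did not pass, by -0.42 ± 0.15 (adjusted p = 0.128). Junb differed by -0.10 ± 0.13 (adjusted p = 0.693).

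Among the LPS pools alone, which all carry week number 1, Egr1 averaged -2.31 in version 2.2.4 and -1.17 in version 2.2.3. Among the air pools, where version and week number cannot be told apart, it averaged -2.38 in version 2.2.4 and -1.26 in version 2.2.3. The channels behind these ratios also differed between versions. On the 8 arrays of version 2.2.4, compared with the 7 of version 2.2.3, the lung channel of Egr1 was lower by 0.98 on the log2 scale over the array median and its reference channel higher by 0.31. For Fos the lung channel was lower by 0.97, with a difference of -0.07 in the reference channel. For Fosl1 the lung channel differed by -0.07 and the reference channel was higher by 0.93. Single channels moved by similar amounts for factors whose ratio did not divide by version, with -0.73 in lung and -0.72 in the reference for Fosl2, 0.66 and 0.69 for Jun, and 0.44 and 0.65 for Atf3. The move of a channel alone therefore does not place the division of a ratio in the lung or in the reference RNA.

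**Figure D3:**
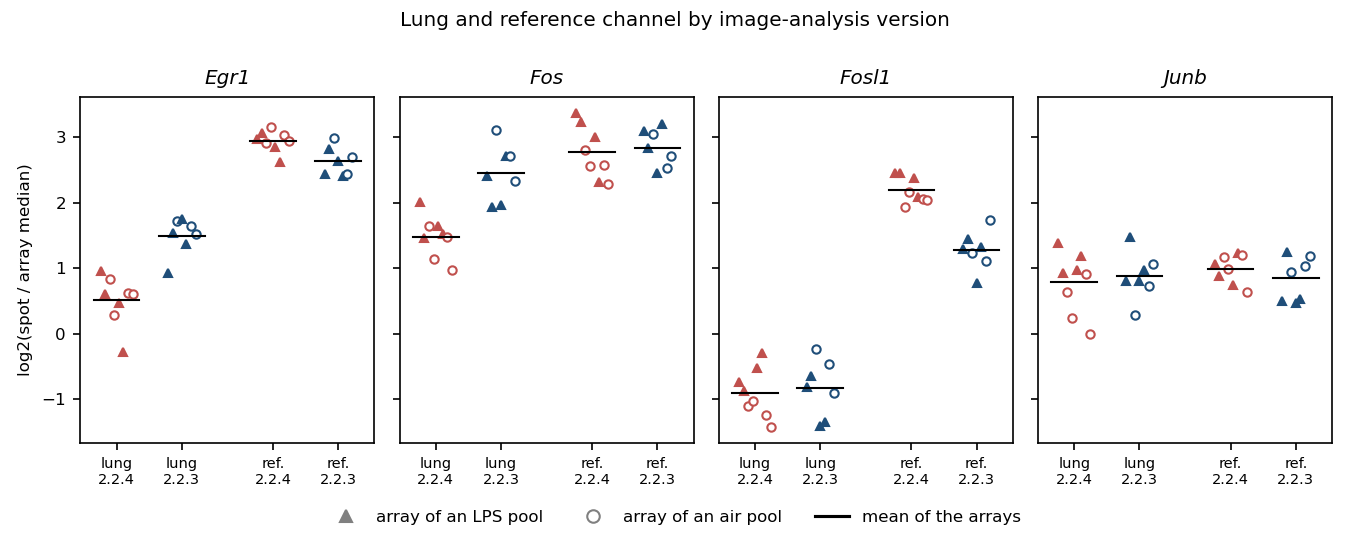
Signal of the Egr1, Fos, Fosl1 and Junb spots as log2 of the spot over the array median (vertical axis), in the lung channel and the reference channel of each array, by image-analysis version. Triangles are arrays of LPS pools, open circles arrays of air pools and lines means over the 8 arrays of version 2.2.4 and the 7 of version 2.2.3. The lung channel of Egr1 averages 0.51 in version 2.2.4 and 1.49 in version 2.2.3, and the reference channel of Fosl1 is higher by 0.93 in version 2.2.4.

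Other bZIP factors, listed here as bZIP partners whether or not each of them pairs with AP-1, were read from the same fit. All 4 related lists were chosen with earlier results of these data known. Their shares therefore do not test whether such genes changed more often than others. Of 26 measured genes, 8 passed with a higher level in LPS lungs, 0 with a lower one, and 18 did not pass (30.8% passed, against 6.67% of all features), and the median difference was 0.29. The largest rise was that of Cebpd, a C/EBP factor of the acute phase and inflammatory response, with means of 1.98 ± 0.35 in LPS lungs and 0.29 ± 0.29 in air lungs (SD, n = 4 each). It rose 3.21-fold (1.68 ± 0.20, adjusted p = 0.000955). Batf, a small bZIP factor that pairs with JunB, stood at 1.70, 1.67, 2.27 and 2.11 in LPS pools 1 to 4, against 0.78, 0.40, 0.76 and 0.12 in air pools 1 to 4. It rose 2.68-fold (1.42 ± 0.20, adjusted p = 0.00231), and for both genes the groups were well apart. Batf was dim on air arrays, with a median lung signal of 2.80 times the local background. The others named were Nfil3 (1.03 ± 0.24), which acts in lymphoid and myeloid cells, the oxidative stress factor Nfe2l2 (0.96 ± 0.22), the C/EBP factor Cebpb (0.87 ± 0.16) and the integrated stress response factor Atf4 (0.81 ± 0.17), with adjusted p between 0.00913 and 0.0302. This count depended on the pools entered. It was 3 of the 26 without LPS pool 1, 2 or 3 or air pool 4, and 5 without LPS pool 4 or air pool 3. The count over all features, 1375 with every pool, fell in the same fits. It was 711, 752 and 829 without LPS pools 1, 2 and 3, and 766 without air pool 4. Without LPS pool 4 it was 1027, and without air pool 3 it was 1013.

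Other immediate early genes were measured with 41 members, of which 13 were higher, 0 lower and 28 did not pass (31.7%, against 6.67% of all features, median difference 0.42). Btg1, which restrains proliferation, rose 3.70-fold (1.89 ± 0.21, adjusted p = 0.000535). Pim1, a survival kinase, stood at 0.58, 0.64, 0.63 and 0.71 in LPS pools 1 to 4, against -0.45, -0.43, -0.24 and -0.43 in air pools 1 to 4, and rose 2.04-fold (1.03 ± 0.11). The spread of Pim1 within the groups was small beside the gap between them. Nfkbiz, an inducible nuclear regulator of NF-kB, rose by 1.16 ± 0.18, the kinase Plk3 by 1.02 ± 0.17 and Gadd45a, a stress and growth arrest protein, by 1.07 ± 0.18. Plk3 was dim on air arrays, with a median lung signal of 2.18 times the local background. Rgs1, a regulator of G protein signalling in leukocytes, rose by 1.34 ± 0.22, but its lung signal was below the local background on 4 of 7 air arrays, so its size is weakly determined. Their adjusted p-values lay between 0.000605 and 0.00667.

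The list of MAP kinases, their activators and the serum response factor axis upstream of these genes gave 3 higher, 0 lower and 26 not passing among 29 measured. That share of 10.3% was near the 6.67% of all features, and the median difference was 0.20. Rps6ka3, which encodes a kinase of the RSK family acting below ERK, rose by 0.99 ± 0.20 (adjusted p = 0.0152). Map2k4, which encodes an activator of JNK and p38, rose by 0.75 ± 0.17 (adjusted p = 0.0243), and Map3k8, which encodes TPL2, the kinase that couples TLR4 to ERK in macrophages, by 1.02 ± 0.25 (adjusted p = 0.0384). Of the 29, 0 passed without LPS pool 1 or without air pool 4, and 1 without LPS pool 2, LPS pool 3 or air pool 3. Fewer of all features passed in those fits too, as given above for the bZIP list.

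Among 22 measured genes described as having AP-1 sites in their regulatory regions, 11 were higher, 0 lower and 11 did not pass (50%, against 6.67% of all features, median difference 0.85). As with the other lists, its genes were chosen with earlier results known, and the share is not a test of AP-1 action. Several of them are made by phagocytes, some of whose markers were higher in LPS pools. The part of those cells in these changes was not tested. Cd44, a hyaluronan receptor, stood at 1.82, 1.92, 2.19 and 2.38 in LPS pools 1 to 4, against 0.45, 0.36, 0.27 and 0.23 in air pools 1 to 4, and rose 3.36-fold (1.75 ± 0.15, adjusted p = 0.00013). Icam1, the adhesion molecule that holds leukocytes to endothelium, rose 3.13-fold (1.65 ± 0.18, adjusted p = 0.000511). Timp1 and Il1b, an inhibitor of metalloproteinases and a cytokine, rose 16.3-fold and 10.9-fold, and the metallothionein Mt2 rose 7.26-fold. The elastase Mmp12 passed as well (adjusted p = 5.92e-05), but the size of its rise is weakly determined, since on air arrays its median lung signal was only 1.13 times the background around the spot, with 3 arrays below it, and air pool 4 gave no value.

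**Figure D4:**
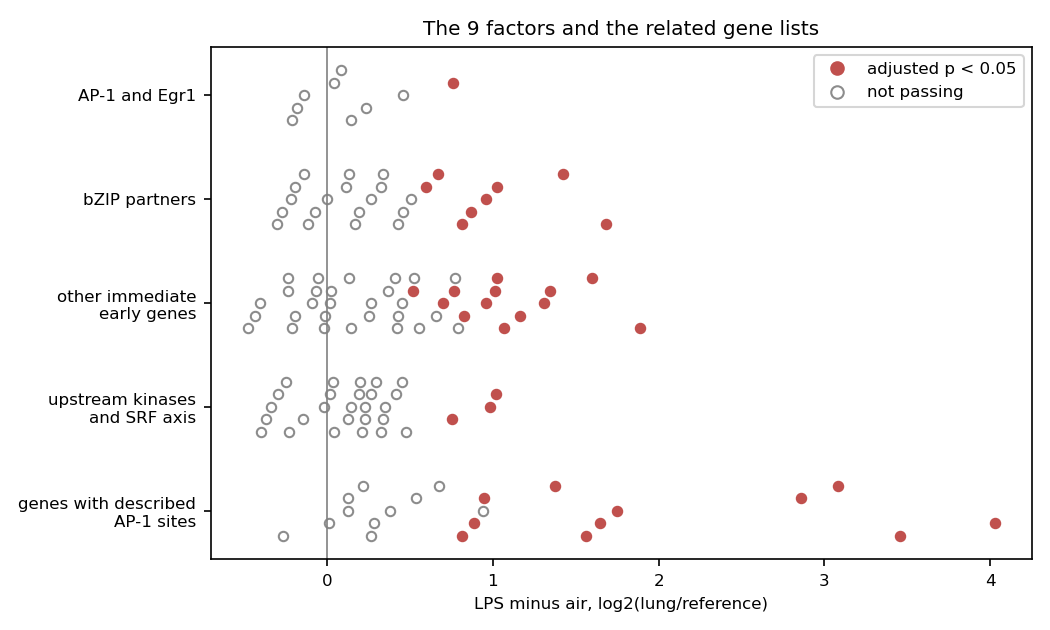
Difference between LPS and air lungs in log2(lung/reference) (horizontal axis) for each measured gene of the 9 factors and of the 4 related lists, 1 point per gene. Filled points passed at an adjusted p under 0.05 and open points did not. All filled points lie to the right of 0: 1 of 9 factors, 8 of 26 bZIP partners, 13 of 41 other immediate early genes, 3 of 29 kinases and 11 of 22 genes with described AP-1 sites.

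The genes whose pool values were most like those of Junb were found by the root mean square distance between values centred on each gene's own mean, over 8 pools and 16329 named genes. They were Cpsf2, a subunit of the machinery that cleaves messenger RNA at its 3' end, at a distance of 0.0891, Ssr4, a subunit of the translocon-associated complex of the endoplasmic reticulum, at 0.0934, and Morc3, a nuclear ATPase, at 0.0957. Their own differences were 0.67, 0.80 and 0.76, and all 3 passed (limma adjusted p = 0.0196, 0.0104 and 0.00932). Since they were picked for closeness to Junb over the same 8 pools, differences near that of Junb follow from the choice. They are not a further result.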

How the data were processed

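Lung RNA of each pool was labelled in Cy3 or Cy5 (5 µg per labelling) and hybridised against reference RNA. Per the file headers, the deposited spot intensity values were made with TIGR Spotfinder 2.2.3 or 2.2.4, with local background already subtracted and without normalisation. The authors' deposited table of log2 ratios followed log2(lung/reference) with r from 0.982 to 0.998. Its column for air pool 4 with lung in Cy3 had a slope of 0.297 and is therefore on the log10 scale. Its column medians lay between -0.136 and 0.0889, and the sources used here do not say how it was normalised. It served as an alternative. The deposited files also give a score per spot (SF), which the file headers do not define.

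Ratios were loess-normalised within each array (limma 3.58.1 in R 4.3.3), expressed as log2 of lung over reference and averaged over the dye swap. The Cy3 lung file of air pool 4, whose Cy5 values correlated at r = 0.998 with another array (next 0.958), was left out, leaving 15 of 16 arrays. Features with at least 3 pools per group were tested two-sided with limma (lmFit, eBayes), and p-values adjusted by Benjamini-Hochberg. The brightest probe stood for a gene. Of the probes, 18218 had 1 symbol, 16 several and 4341 none, and 18175 were matched to a RefSeq table, which changed 0 symbols. With the placement used, the 2 probes of a gene correlated at 0.523 over air pools (1030 pairs), against 0.0456 with spots as numbered. The factors and gene lists were chosen with earlier results of these data known. All 9 factors are named, and from each related list the 6 or fewer genes with the smallest p among those that passed. The fits were tested on simulated data. There, 34% of 100 features changed by 0.75 on the log2 scale passed, and 85% of 100 changed by 1.5. Of the features that passed, 6.3% had not been changed. The simulated noise was drawn independently for each feature and pool, without a shared difference between image-analysis versions. These shares may therefore not hold for the real arrays. Alternatives covered the arrays entered, normalisation, offset, dim and low-SF spots, version, replicate number, dye, probe choice and each pool left out.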

Additional observations from a re-analysis of the deposited data

How the results depend on the processing

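Junb was above air in all 26 alternatives (0.65 to 0.97) and passed in 23. It did not pass with lung in Cy5 only (0.65, adjusted p = 0.0579), in the pools of version 2.2.4 only (0.76, adjusted p = 0.0616) or with the replicate block (0.76, adjusted p = 0.0529). Deviations of same-numbered pools correlated between -0.263 and -0.0374 in 4 pairs. Each of these pairs joins pools of different versions, so the values cannot show whether the pool numbers pair the samples. With the replicate block 857 features, 0 factors and 5 bZIP partners passed. With the version as a block 2265 features and 2 factors passed, Fosl2 (0.46, adjusted p = 0.0495) beside Junb.

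Signs changed only for factors that did not pass. With all 16 arrays, 501 features, 3 bZIP partners, 7 immediate early genes and 0 kinases passed, and Fosl1, Jun and Egr1 were at -0.15, -0.025 and -0.048. Median centring gave 735 features, 4 bZIP partners and 1 kinase. Scaling between arrays put Fosl1 at -0.30 and Egr1 at -0.17. Lung in Cy5 only gave 1038 features, 0 factors, 5 bZIP partners, 8 immediate early genes and 1 kinase, with Egr1 at -0.024. Lung in Cy3 only gave 417 features, 2 bZIP partners, 8 immediate early genes and 0 kinases, with Fosb at 2.6e-05, Fosl1 at -0.027 and Jun at -0.33. The authors' deposited ratios put Jun at -0.030. Version 2.2.4 only gave 1158 features, 0 factors, 4 bZIP partners and 1 kinase, with Fos at 0.048, Jun at -0.38 and Atf3 at -0.10. Version 2.2.3 only gave 4707 features (23.1% of those tested) and 10 kinases, with Fosl1 at -0.060. Chosen after the data were seen, the version block without air pool 4 gave 1275 features, with Fosl1 at -0.033 and Jun at -0.042. The version block with lung in Cy5 only, also chosen then, gave 2226 features and Egr1 at -0.024. In both of these fits 1 factor passed, and Fosl2 did not (adjusted p = 0.112 and 0.052). The causes were not tested.

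Leaving out each pool in turn gave 711 to 1262 features (711, 752 and 829 without LPS pools 1, 2 and 3, and 766 without air pool 4), 1 to 1 factors, 3 to 7 bZIP partners, 9 to 13 immediate early genes, 0 to 3 kinases and 10 to 11 genes with AP-1 sites. The differences lay between -0.31 and 0.082 for Fos, -0.29 and -0.018 for Fosb, -0.048 and 0.51 for Fosl1, 0.38 and 0.54 for Fosl2, -0.084 and 0.21 for Jun, 0.71 and 0.84 for Junb, -0.27 and -0.079 for Jund, 0.13 and 0.31 for Atf3 and -0.15 and 0.35 for Egr1.

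Agreement between the dye-swapped arrays of a pool was r = 0.418 to 0.795 in version 2.2.4 and 0.820 to 0.899 in the complete pools of version 2.2.3. In the fit without the version, the 95% intervals of Egr1, Fosl1 and Fos do not exclude a change of 1.37-fold in either direction. With the version as a block their SEs were 0.14, 0.22 and 0.14, against 0.38, 0.35 and 0.26 without it.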

Other observations

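The following genes were chosen after their values were seen. All 3 members of the Gadd45 family, which respond to stress, were higher in LPS lungs: Gadd45b by 1.60 ± 0.27 (limma adjusted p = 0.00667), Gadd45a by 1.07 ± 0.18 and Gadd45g by 0.70 ± 0.14 (adjusted p = 0.0157). Of the family of zinc finger proteins that bind AU-rich messages and speed their decay, Zfp36, which encodes tristetraprolin, was higher by 0.96 ± 0.19 (adjusted p = 0.0139) and Zfp36l1 by 0.76 ± 0.16 (adjusted p = 0.0172). Zfp36l2 was at -0.43 ± 0.22 and did not pass (adjusted p = 0.273).

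With the version as a block 18 of the 41 other immediate early genes were higher, where 8.72% of all features were, against 13 without it. The 5 further genes were Ier3 (0.79 ± 0.23 without the block, adjusted p = 0.0124 with it), Ptgs2 (adjusted p = 0.0377), Dusp6 (0.0447), Klf10 (0.0492) and Myc. Myc did not pass over all pools (0.66 ± 0.31, adjusted p = 0.246) and passed with the version as a block (adjusted p = 0.00725), standing at -1.69, -1.86, -2.71 and -2.86 in LPS pools 1 to 4, against -3.36, -3.34, -2.42 and -2.63 in air pools 1 to 4. As with Egr1, its LPS pools of version 2.2.4 were lower than those of version 2.2.3, and so were its air pools.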
